A study of Mus musculus with 6 samples.

Results

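The genes of major histocompatibility complex (MHC) class II and their transactivator Ciita were followed by RNA sequencing in 6 tumours that formed under the skin of C57BL/6J mice injected with Hep1-6, a line of mouse hepatoma cells. The members were chosen by name and comprise 10 of the 34745 gene IDs in the deposited table: H2-Aa, H2-Ab1, H2-Eb1, Cd74, Ciita, H2-DMa, H2-DMb1, H2-DMb2, H2-Oa and H2-Ob. The hosts of 3 tumours ate a high cholesterol diet (HCD), those of the other 3 a normal diet (ND), and all hosts shared the strain and the injected line, with no gene altered per the labels. The labels do not say that each tumour came from a different mouse, so p-values measure only the spread between these samples. A tumour piece holds the injected cells, which are 1 line, and whatever host cells entered it.

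MHC class II molecules are pairs of an alpha and a beta chain that carry peptides from endosomes to the cell surface, where CD4 T cells read them. The invariant chain Cd74 fills the groove of a new pair, H2-DM exchanges its remnant for other peptides, and H2-DO holds H2-DM back. Ciita does not bind DNA itself but assembles on factors at the X and Y boxes of these promoters. Dendritic cells, macrophages and B cells express class II constitutively, and interferon gamma can induce it in many other cells through Ciita.

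Values are FPKM, fragments per kilobase of gene and per unit of library size, so levels can be set beside each other between genes. The library sizes implied by the values ran from 20351616 to 20918294 fragments in HCD and from 20622739 to 26228110 in ND. At 2 kb of gene length 1 FPKM stood for 40.7 to 52.5 reads. Hepatoma transcripts were abundant in every library: Alb, serum albumin, had 1470, 1180 and 1670 FPKM in HCD 1 to HCD 3, against 1550, 1300 and 1270 FPKM in ND 1 to ND 3. Of 6 hepatoma markers 1, Serpina1a, lay at or near 0 (at most 0.14 FPKM).

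The promoters of 7 members were found by symbol in RefSeq's table for GRCm38.p6, the assembly that mm10 denotes. These members were H2-Aa, H2-Eb1, H2-DMa, H2-DMb1, H2-DMb2, H2-Oa and H2-Ob; H2-Ab1, Cd74 and Ciita had no entry. They are shown because the X and Y boxes are the sites at which Ciita is known to assemble. The letters searched were AACNNATG for the X box, TGATTGG for the Y box and TGACGTCA for a cyclic AMP response element (CRE), chosen with the sequences in view and searched on both strands of the 300 bases from 250 before the start site. Matches stand in capitals, and each sequence runs 5′ to 3′ on the strand of its gene.

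H2-Eb1 (chr17:34305770-34305820, plus strand): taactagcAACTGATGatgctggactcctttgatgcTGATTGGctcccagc
H2-DMb1 (chr17:34153092-34153142, plus strand): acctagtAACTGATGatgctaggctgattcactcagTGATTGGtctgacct
H2-DMb2 (chr17:34145121-34145171, plus strand): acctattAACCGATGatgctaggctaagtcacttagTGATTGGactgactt
H2-Ob (chr17:34238810-34238860, plus strand): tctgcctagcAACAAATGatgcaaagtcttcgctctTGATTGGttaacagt
H2-Aa (chr17:34287859-34287909, minus strand): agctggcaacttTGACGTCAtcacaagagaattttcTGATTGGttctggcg
H2-Oa (chr17:34092298-34092348, plus strand): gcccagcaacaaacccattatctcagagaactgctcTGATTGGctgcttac

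H2-Eb1, H2-DMb1, H2-DMb2 and H2-Ob held the X letters followed by the Y letters, with 26 to 29 bases between their first letters. Over all 32851 promoters of that length, 8.86% held the X letters, 7.82% the Y letters and 1.79% the CRE letters on either strand. On either strand, 17 of them (0.0517%) held X letters with Y letters starting 20 to 45 bases further on. On the strand of the gene 13 (0.0396%) did, among them these 4 members. As the letters were chosen with the sequences in view, the matches in members are no test. H2-Aa and H2-Oa held the Y letters without the X letters, and H2-Aa held the CRE letters starting 24 bases before the Y letters. Looser forms of the X box were not searched, so an X box in these 2 promoters is not excluded. The 2 listed starts of H2-DMa held none of these letters on the strand of the gene. H2-Eb2, a class II beta gene beside H2-Eb1 that is no member, held both boxes (chr17:34325537-34325587, plus strand): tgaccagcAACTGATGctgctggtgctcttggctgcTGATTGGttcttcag. The letters describe the sequence and show no binding.

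**Figure D1:**
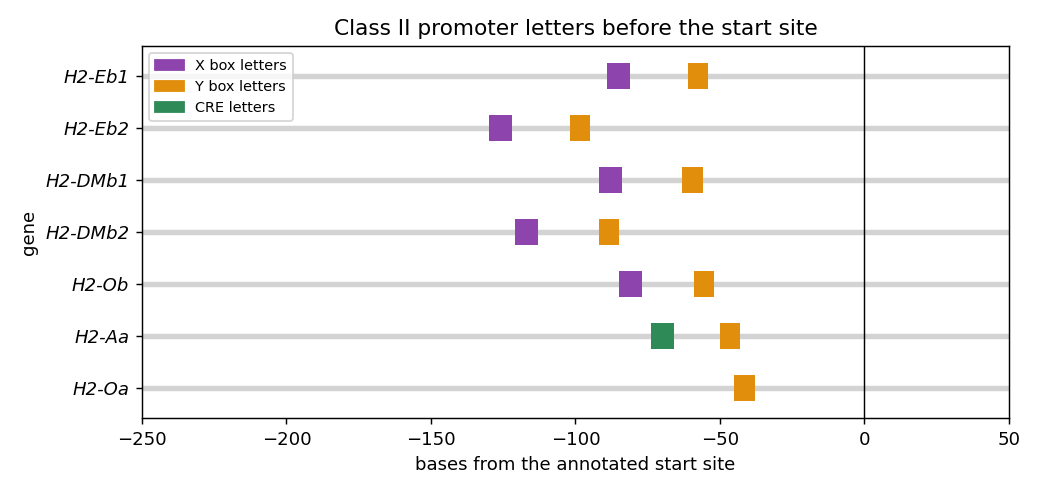
Position of the X box, Y box and CRE letters on the gene strand (coloured blocks) against the annotated start site at 0, in bases, for the class II promoters with a Y box match. The Y box lies 28 or 29 bases after the X box in H2-Eb1, H2-Eb2, H2-DMb1 and H2-DMb2 and 26 bases after it in H2-Ob.

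The members spanned more than 3 orders of magnitude in level, and Cd74 stood highest in each library. Their mean over the 6 libraries was 624 FPKM for Cd74, 330 for H2-Eb1, 149 for H2-Aa, 135 for H2-Ab1, 32.6 for H2-DMb1, 17.4 for H2-DMa, 9.89 for Ciita, 2.31 for H2-DMb2, 0.421 for H2-Ob and 0.359 for H2-Oa. That order held within every library down to H2-DMb2. H2-Ob and H2-Oa changed places between libraries, with an H2-Oa to H2-Ob ratio of 0.479 to 1.69. H2-Aa and H2-Ab1 were close neighbours, and their order rests on the gene length used. The values imply a length of 2562 bases for H2-Aa and 2354 for H2-Ab1; at the exon lengths of GENCODE M21 (3798 and 2568) their means would be 101 and 124 FPKM. Together the 10 genes took 0.403% to 0.743% of all FPKM in HCD and 0.195% to 0.505% in ND. Cd74 ranked between 29 and 49 among all genes in HCD libraries and between 39 and 109 in ND libraries.

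**Figure D2:**
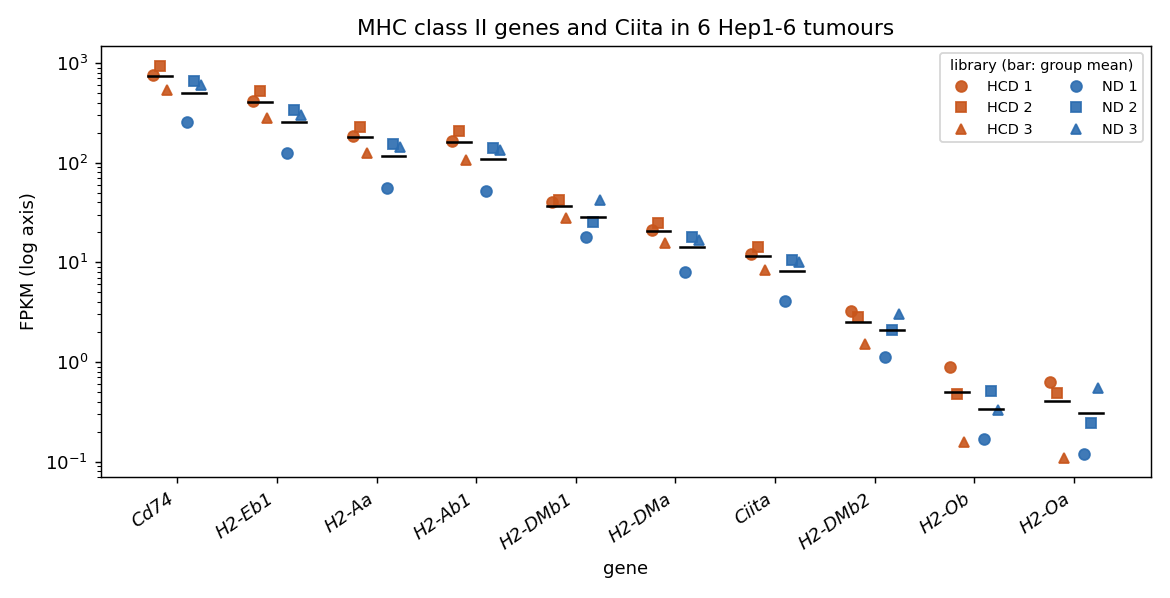
FPKM of the 10 genes (log axis) in 3 HCD libraries (orange, left) and 3 ND libraries (blue, right); symbols give the library number and bars the group mean. The groups overlap for each gene, and ND 1 lies below the other ND libraries.

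The comparison of HCD with ND asks whether dietary cholesterol goes with a change in these transcripts. All 10 genes had a higher mean log2 level in HCD, with a median difference of 0.52, but no member was called. This stands beside 55.7% of tested genes with a higher mean and a median of 0.0187 over all of them. A log2 difference of at least 0.4, a cut not set in advance, was seen in 7 members and in 3.17% of tested genes. With ND 1 left out, the largest difference among the members was 0.29, for H2-Eb1. Limma with Benjamini-Hochberg adjustment called 0 of the 8 members that passed the level for testing, a mean of 0.5 FPKM, and 0 of 13417 genes (0.0% higher, 0.0% lower). At an unadjusted p under 0.05 there were 0 members and 789 genes (5.88%). In no member did the groups keep apart, while 12.1% of all tested genes had groups that did not overlap, 5.98% with HCD higher. In bulk tumour RNA, fewer cells of a type and less RNA per cell cannot be told apart.

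The chains of the peptide-binding molecules came first in level. H2-Aa, the alpha chain of the I-A molecule (chromosome 17, 34282744 to 34287823), had 185, 230 and 125 FPKM in HCD 1 to HCD 3, against 55.2, 155 and 145 FPKM in ND 1 to ND 3. HCD 2 was highest and ND 1 lowest, and both ND 2 and ND 3 lay above HCD 3. Its means were 180 ± 52.8 FPKM in HCD and 118 ± 55.0 FPKM in ND (SD, n = 3 each), and the log2 difference was 0.69 (SE 0.435, 95% interval -0.36 to 1.75, limma adjusted p = 0.794).

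H2-Ab1, its beta chain partner (chromosome 17, 34257689 to 34269419), had 164, 210 and 107 FPKM in HCD 1 to HCD 3, against 51.6, 142 and 133 FPKM in ND 1 to ND 3. The libraries stood in the same order as for H2-Aa. The log2 difference was 0.64 (SE 0.439, 95% interval -0.43 to 1.70, limma adjusted p = 0.795).

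H2-Eb1, the beta chain of the I-E molecule (chromosome 17, 34305867 to 34316674), had 417, 520 and 279 FPKM in HCD 1 to HCD 3, against 124, 340 and 303 FPKM in ND 1 to ND 3. Again HCD 2 was highest and ND 1 lowest, with HCD 3 below ND 2 and ND 3. The log2 difference of 0.74 was the largest among the members (SE 0.425, 95% interval -0.29 to 1.78, limma adjusted p = 0.794). C57BL/6 mice carry a haplotype in which the I-E alpha gene is not transcribed. Its locus, H2-Ea-ps, was listed at 0 FPKM in all 6 libraries, although H2-Eb1 was the most abundant of the chain genes. The neighbouring H2-Eb2 had 1.87, 2.53 and 1.34 FPKM in HCD 1 to HCD 3, against 0.099, 1.5 and 1.12 FPKM in ND 1 to ND 3 (limma adjusted p = 0.794).

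Cd74, the invariant chain, sits outside the MHC (chromosome 18, 60803848 to 60812652). It had 751, 944 and 536 FPKM in HCD 1 to HCD 3, against 255, 659 and 599 FPKM in ND 1 to ND 3. The order of the libraries was that of the chains. Means were 744 ± 204 FPKM in HCD and 505 ± 218 FPKM in ND (SD, n = 3 each), and the log2 difference was 0.64 (SE 0.399, 95% interval -0.33 to 1.6, limma adjusted p = 0.794).

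Ciita, the transactivator (chromosome 16, 10480059 to 10528418), kept the library order of H2-Aa. Its mean level lay below those of Cd74, H2-Eb1, H2-Aa, H2-Ab1, H2-DMb1 and H2-DMa. It lay above those of H2-DMb2, H2-Ob and H2-Oa. Ciita had 12, 14.2 and 8.30 FPKM in HCD 1 to HCD 3, against 4.12, 10.6 and 10.1 FPKM in ND 1 to ND 3. HCD 2 was highest, ND 1 lowest, and HCD 3 lay between ND 1 and the other ND libraries. Its log2 difference was 0.49 (SE 0.353, 95% interval -0.36 to 1.35, limma adjusted p = 0.795).

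The peptide editor H2-DM was represented by 1 alpha and 2 beta genes. H2-DMa, the alpha chain (chromosome 17, 34119541 to 34139101), had 21, 24.9 and 15.8 FPKM in HCD 1 to HCD 3, against 8.06, 18.0 and 16.8 FPKM in ND 1 to ND 3. It kept the order of H2-Aa, and its log2 difference was 0.55 (SE 0.313, 95% interval -0.21 to 1.31, limma adjusted p = 0.794). H2-DMb1, a beta chain (chromosome 17, 34153072 to 34160230), had 40.3, 41.8 and 28.0 FPKM in HCD 1 to HCD 3, against 18.0, 25.5 and 42.1 FPKM in ND 1 to ND 3. Here ND 3 was the highest library and ND 2 lay below HCD 3, so H2-DMb1 left the common order. Its log2 difference was 0.41 (SE 0.314, limma adjusted p = 0.803).

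H2-DMb2, the second beta gene (chromosome 17, 34143307 to 34151555), stayed far below H2-DMb1. It had 3.25, 2.85 and 1.5 FPKM in HCD 1 to HCD 3, against 1.13, 2.09 and 3.02 FPKM in ND 1 to ND 3. HCD 1 and ND 3 were its highest libraries, and the log2 difference was 0.21 (SE 0.292, limma adjusted p = 0.872). The beta genes are near copies: 22.7% of the 50-base words in H2-DMb1 transcripts occur in transcripts of other genes, all of them in H2-DMb2. For H2-DMb2 the share was 24.8%, most of it with H2-DMb1. The split of reads between them is therefore uncertain. Of the other 8 members, only H2-Aa shared such words with other genes (0.488%).

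H2-DO, best known from B cells, was represented by few reads. H2-Oa, its alpha chain (chromosome 17, 34092340 to 34095234), had 0.63, 0.493 and 0.11 FPKM in HCD 1 to HCD 3, against 0.12, 0.245 and 0.555 FPKM in ND 1 to ND 3. These values stood for 28, 22 and 5 reads in HCD 1 to HCD 3, against 6, 14 and 25 reads in ND 1 to ND 3. The exact Poisson 95% interval, which covers counting error only, was 1.62 to 11.7 for 5 reads and 18.6 to 40.5 for 28 reads. H2-Ob, its beta chain (chromosome 17, 34238903 to 34254414), had 0.884, 0.476 and 0.158 FPKM in HCD 1 to HCD 3, against 0.169, 0.511 and 0.329 FPKM in ND 1 to ND 3. It had 98, 53 and 18 reads in HCD 1 to HCD 3, against 21, 73 and 37 reads in ND 1 to ND 3.

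H2-Oa and H2-Ob were both highest in HCD 1 and lowest in HCD 3. The lowest rank was a near tie, as HCD 3 and ND 1 had 5 and 6 reads of H2-Oa and 18 and 21 reads of H2-Ob. Both genes lay below the level for testing. Most B cell markers were sparse too, with 5 of 8 below that level. Ighm, the most abundant of them, was not sparse and was highest in HCD 2. It had 20.3, 38.1 and 3.55 FPKM in HCD 1 to HCD 3, against 2.19, 21.3 and 4.89 FPKM in ND 1 to ND 3. Cd79a, a signalling chain of the B cell receptor, had 2.53, 1.51 and 0.394 FPKM in HCD 1 to HCD 3, against 0.42, 0.654 and 0.366 FPKM in ND 1 to ND 3. Like the H2-DO genes it was highest in HCD 1, and its lowest library was ND 3, close to HCD 3. The part of B cells in the H2-DO values was not tested.

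**Figure D3:**
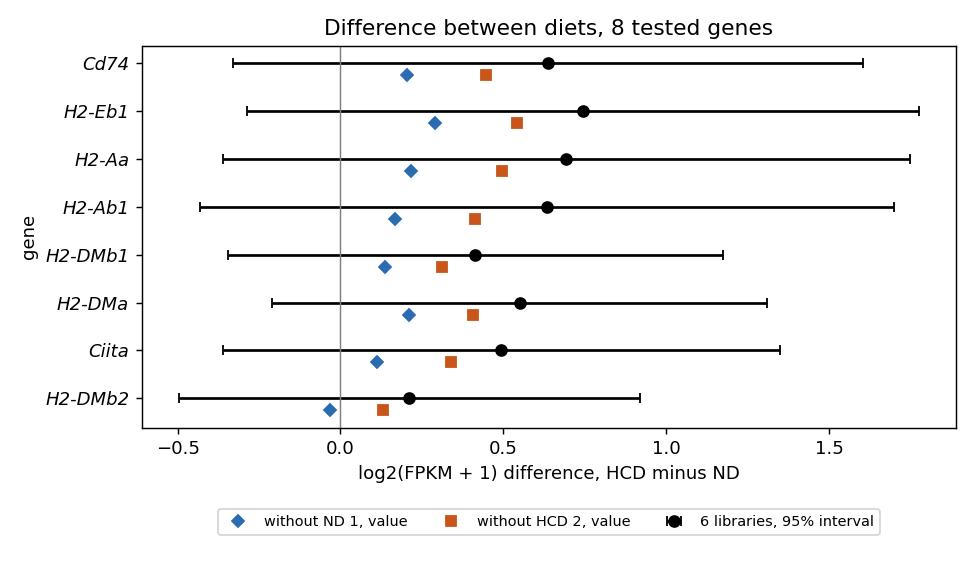
HCD minus ND differences in log2(FPKM + 1) of the 8 tested genes, with limma 95% intervals over 6 libraries (black), and the values without ND 1 (blue diamonds) and without HCD 2 (orange squares). Each interval covers 0, and without ND 1 the differences run from -0.03 to 0.29.

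For the 8 tested members, leaving out ND 1 gave the smallest difference of all single libraries left out. Without it the log2 difference was 0.22 for H2-Aa, 0.17 for H2-Ab1, 0.29 for H2-Eb1, 0.20 for Cd74, 0.11 for Ciita, 0.21 for H2-DMa and 0.14 for H2-DMb1. H2-DMb2 turned to -0.03. The mean over all 10 members was 0.14 without ND 1, against 0.46 with all libraries, and 0.33 without HCD 2.

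In 6 members the 6 libraries stood in exactly the same order, HCD 2, HCD 1, ND 2, ND 3, HCD 3 and ND 1 from high to low. These were H2-Aa, H2-Ab1, H2-Eb1, Cd74, Ciita and H2-DMa. The same order occurred in 155 of 13417 tested genes (1.16%). HCD 2 was the highest library in 24.0% of tested genes and ND 1 the lowest in 27.0%. Levels of these 6 members varied 3.1-fold to 4.19-fold between their highest and lowest library.

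**Figure D4:**
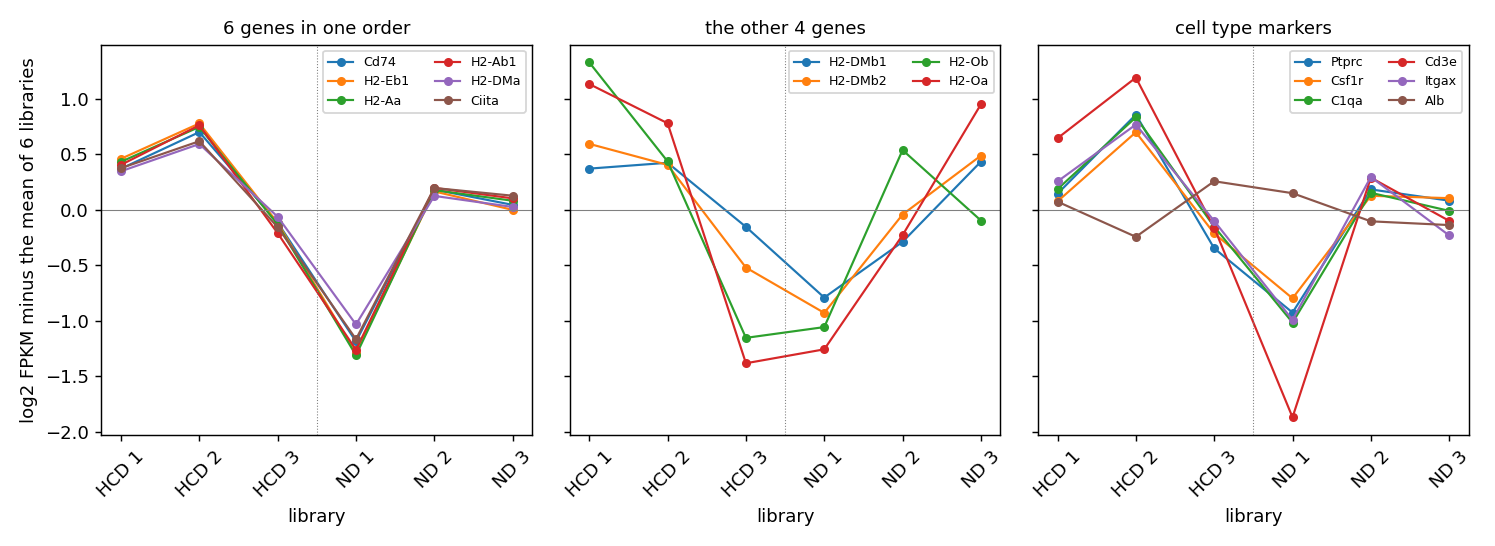
Log2 FPKM of each gene minus its mean over the 6 libraries, for the 6 genes that share one order (left), the other 4 members (middle) and single cell type markers (right). The 6 genes run nearly on one line with ND 1 lowest, and Ptprc, Csf1r, C1qa, Itgax and Cd3e are also highest in HCD 2 and lowest in ND 1, of which C1qa and Cd3e have the order of the 6 genes. Alb is highest in HCD 3 and lowest in HCD 2.

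Ratios within a library varied far less than the levels. H2-Ab1 stood at 0.887, 0.914 and 0.856 of H2-Aa in HCD 1 to HCD 3, against 0.934, 0.915 and 0.918 in ND 1 to ND 3, a 1.09-fold range. H2-Eb1 stood at 2.23 to 2.26 times H2-Aa in HCD and at 2.09 to 2.24 times in ND. Cd74 stood at 0.98 to 1.05 of the summed 3 chains in HCD and 1.03 to 1.11 in ND, a 1.13-fold range. The size of that ratio rests on the gene lengths used: at GENCODE M21 lengths it was 1.69 to 1.82 in HCD and 1.76 to 1.90 in ND, with the same 1.13-fold range. H2-Aa itself varied 4.17-fold over the same libraries.

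Ciita per H2-Aa was lower in each HCD library than in any ND library. The ratio to H2-Aa was 0.0648, 0.0617 and 0.0665 in HCD 1 to HCD 3, against 0.0746, 0.0683 and 0.0695 in ND 1 to ND 3. The groups did not overlap in this ratio or in that of H2-Ab1 to H2-Aa, 2 of the 12 ratios formed among members. Both gaps were narrow. For H2-Ab1 the closest values were 0.914 in HCD 2 and 0.915 in ND 2. For Ciita they were 0.0665 in HCD 3 and 0.0683 in ND 2. Ciita had 912 reads in HCD 3, with a Poisson 95% interval of 854 to 973 from counting error only. With 3 libraries against 3 an exact two-sided permutation test cannot give a p below 0.1, and these ratios were singled out after their values were seen.

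The H2-DM and H2-DO genes were less tightly tied. H2-DMb1 was 1.92, 1.68 and 1.77 times H2-DMa in HCD 1 to HCD 3, against 2.23, 1.41 and 2.51 times in ND 1 to ND 3. Within ND the ratio spread 1.78-fold, wider than the whole HCD group. The summed H2-DO genes stood at 0.0235, 0.0139 and 0.0059 of the summed H2-DM genes in HCD 1 to HCD 3, against 0.0106, 0.0166 and 0.0143 in ND 1 to ND 3. The HCD libraries held both the highest and the lowest value, 3.98-fold apart. The lowest, in HCD 3, rests on 5 reads of H2-Oa and 18 of H2-Ob, so counting error enters this spread. The uncertain split of reads between H2-DMb1 and H2-DMb2 enters the H2-DMb1 to H2-DMa ratio.

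**Figure D5:**
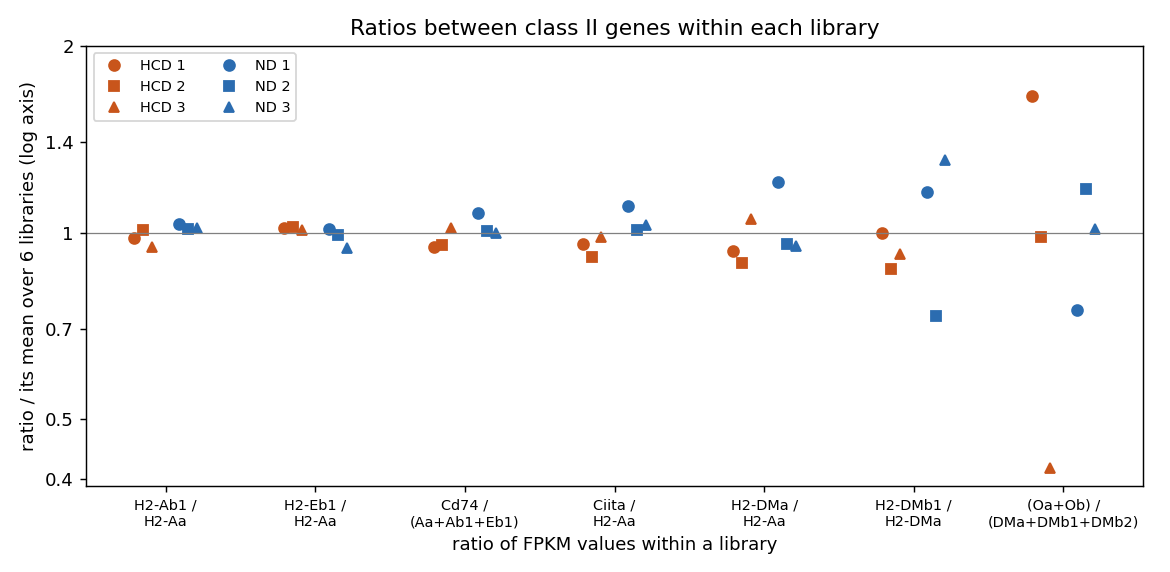
Ratios of FPKM values within each library, each divided by its mean over the 6 libraries (log axis), for HCD (orange, left) and ND (blue, right). Chain and invariant chain ratios stay within a 1.13-fold range, H2-DMb1 to H2-DMa spans 1.78-fold and H2-DO to H2-DM 3.98-fold. The H2-DO values rest on few reads.

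Genes that act before and after Ciita did not share one pattern. Of 7 factors that bind class II promoters, 0 were called, and the mean was higher in HCD for 4 and lower for 3. Nfya and Nfyc, subunits of the Y box factor NF-Y, differed by 0.05 and -0.05 on the log2 scale. Rfxap, a subunit of the X box factor RFX that was picked with its values in view, was the 1 factor whose groups did not overlap. Of all tested genes, 12.1% had such groups. Rfxap had 6.22, 5.44 and 5.32 FPKM in HCD 1 to HCD 3, against 5.29, 4.83 and 4.30 FPKM in ND 1 to ND 3 (limma adjusted p = 0.794). The gap, from 5.29 to 5.32, was narrow.

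Of 9 genes of interferon gamma signalling, 7 had a higher mean in HCD and 0 were called, with a median log2 difference of 0.04. Irf1, a factor that acts on Ciita, had 35, 45.6 and 33.4 FPKM in HCD 1 to HCD 3, against 25.6, 38.9 and 39.8 FPKM in ND 1 to ND 3. Jak2, a kinase of the receptor, differed by -0.17 (limma adjusted p = 0.795). Ifng itself, also picked with its values in view, had 2.40, 5.76 and 1.90 FPKM in HCD 1 to HCD 3, against 1.01, 2.56 and 3.62 FPKM in ND 1 to ND 3. Its 2 lowest libraries were ND 1 and HCD 3, as for H2-Aa. Unlike for H2-Aa, ND 2 and ND 3 lay above HCD 1.

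Of 8 endosomal processing genes, 0 were called; 6 means were higher in HCD, 2 were lower, and 1 gene had an unadjusted p under 0.05. That 1 was Ctsl, cathepsin L, which had 150, 188 and 178 FPKM in HCD 1 to HCD 3, against 214, 191 and 211 FPKM in ND 1 to ND 3 (log2 difference -0.26, limma adjusted p = 0.794). Its groups did not overlap. Of all tested genes, 12.1% had such groups and 5.88% an unadjusted limma p under 0.05. Ctss, cathepsin S, the protease that trims the invariant chain in dendritic cells and B cells, was picked with its values in view. Ctss had 174, 257 and 133 FPKM in HCD 1 to HCD 3, against 49.4, 149 and 141 FPKM in ND 1 to ND 3. These values stood in the same order as H2-Aa (log2 difference 0.83, limma adjusted p = 0.794). Ctsd, cathepsin D, differed by 0.13.

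Genes of class II turnover and costimulation were low. March1, a ubiquitin ligase that removes surface class II, had 0.593, 1.23 and 0.631 FPKM in HCD 1 to HCD 3, against 0.30, 0.761 and 0.701 FPKM in ND 1 to ND 3. March8, a related ligase, differed by 0.02. Of 5 costimulatory genes 3 had a higher mean in HCD and 0 were called; Cd83, which shields class II from March1, differed by 0.46 and Icosl, a ligand for a T cell receptor, by 0.15. Of 9 neighbours in and near the class II region 7 were tested and 0 called. Among them Brd2, which overlaps H2-DMa on the other strand, differed by 0.05 and Tapbp, a peptide loader of class I, by 0.22.

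On the side of T cells, 4 of the 6 listed genes were tested, all with a higher mean in HCD, and 0 were called. Lag3, an inhibitory receptor that binds class II, had 7, 8.96 and 3.93 FPKM in HCD 1 to HCD 3, against 1.6, 4.42 and 6.48 FPKM in ND 1 to ND 3. Its log2 difference was 0.63 (limma adjusted p = 0.795). Cd3e, part of the signalling complex of T cell receptors, differed by 0.83 (limma adjusted p = 0.794) and had the order of H2-Aa.

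Markers of macrophages, dendritic cells, B cells and T cells differed in pattern by cell type, and 0 were called. The 10 macrophage markers summed to 430 to 1030 FPKM in HCD and 261 to 620 FPKM in ND, all 10 were highest in HCD 2, 9 were lowest in ND 1 and none was at 0 in any library. C1qa, a complement chain of macrophages, had 134, 210 and 106 FPKM in HCD 1 to HCD 3, against 58.2, 131 and 117 FPKM in ND 1 to ND 3. Dendritic cell markers summed to 21.4 to 41.3 FPKM in HCD and 12.8 to 31.3 FPKM in ND, with 2 of 10 below the level for testing and none at 0 in all libraries. Of these 10, 6 were highest in HCD 2, 3 in ND 2 and 1 in HCD 1, and 8 were lowest in ND 1. Their median log2 difference was 0.13, from 0.57 for Itgax, the integrin CD11c (limma adjusted p = 0.794), to -0.11 for Clec10a, a lectin of dendritic cells and macrophages (limma adjusted p = 0.944). B cell markers summed to 4.44 to 42.3 FPKM in HCD and 3.10 to 23.0 FPKM in ND; 7 of the 8 were highest in HCD 1 and 1, Ighm, in HCD 2, while 4 were lowest in ND 1 and 3 in HCD 3. T cell markers summed to 25.2 to 64.2 FPKM in HCD and 8.1 to 36.3 FPKM in ND, with all 8 highest in HCD 2 and lowest in ND 1.

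With the divisors tried, ratios of class II to single leukocyte genes varied less than class II itself. Cd53, a leukocyte gene with its lowest level in HCD 1 (34.5 FPKM) and its highest in ND 3 (69.3 FPKM), was not among the divisors. The summed H2-Aa, H2-Ab1 and H2-Eb1 FPKM were 149, 114 and 140 times Ptprc, the leukocyte tyrosine phosphatase CD45, in HCD 1 to HCD 3, against 94.0, 120 and 118 times in ND 1 to ND 3. This ratio varied 1.58-fold over the libraries, and its log2 difference was 0.28. Relative to C1qa the summed chains stood at 4.57 to 5.74 in HCD and 3.97 to 4.98 in ND, a log2 difference of 0.13. With other macrophage genes as the divisor the log2 difference was 0.09 for Lyz2, 0.34 for Csf1r, 0.34 for Adgre1 and 0.37 for Cd68. Csf1r, the receptor for a macrophage growth factor, was the 1 of these 5 divisors for which the groups did not overlap, at 31.5 to 38.7 in HCD and 21.4 to 31.1 in ND. Relative to Cd3e the summed chains stood at 110 to 150 in HCD and 137 to 223 in ND, a log2 difference of -0.41. With the other divisors tried it was 0.09 for Itgax, 0.16 for Laptm5, 0.23 for Coro1a, -0.13 for Ctss and -0.22 for Cd8a, each with overlapping groups. These marker genes were picked after their values were seen, and the part of leukocyte content in the class II differences was not tested.

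Endothelial markers had higher means in HCD in 5 of 5 genes, with sums of 41.8 to 73.3 FPKM in HCD and 37.5 to 43.4 FPKM in ND. Hepatoma markers summed to 1550 to 2190 FPKM in HCD and 1680 to 2050 FPKM in ND, with none of the 5 tested highest in HCD 2 or lowest in ND 1. Skeletal muscle RNA was high in HCD 1 and ND 2, where Acta1, muscle actin, had 448 and 275 FPKM, against at most 43.5 FPKM elsewhere. Leaving out both libraries gave a mean log2 difference of 0.54 over the 10 members, in place of 0.46.

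The genes most like the members were found by Pearson's r over the 6 libraries between each log2 level and the mean log2 level of the 10 members, among 11249 genes, as a description. The 8 highest were 2810006K23Rik (r = 0.993), Safb2 (0.992), H2-M2 (0.99), Tmem126a (0.988), Apol7e (0.988), Cd8a (0.988), Elf1 (0.987) and Fam173b (0.987). They differed in amplitude: Safb2, a nuclear matrix protein, varied 1.12-fold between libraries, Cd8a, the CD8 alpha chain, 7.8-fold and H2-M2, a nonclassical class I gene, 13.3-fold. H2-M2 had 13.1, 20.4 and 5.07 FPKM in HCD 1 to HCD 3, against 1.54, 8.46 and 8.51 FPKM in ND 1 to ND 3.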

How the data were processed

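RNA was sequenced from 6 tumours, 3 HCD and 3 ND. Per the file headers, the deposited values are FPKM in a column for each sample. Tools named in the submitters' processing notes, without their roles, are CASAVA 1.8, TopHat2 2.0.9, HTSeq and edgeR, and the build is mm10; strand use and annotation release are not given in the sources used here. Without strand, reads of Ciita, H2-DMa and H2-Oa cannot be separated from overlapping exons of Dexi, Brd2 and BC051537.

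Tests covered genes averaging 0.5 FPKM or more, with limma 3.58.1 (R 4.3.3) on log2(FPKM + 1) with a variance trend, diet as the only term, two-sided, at an adjusted p of 0.05. Differences are HCD minus ND on that scale, which understates changes of low genes. The fit was also run on simulated data as a self-test, the outcome of which is not reported here. Reads were recovered from the FPKM steps: library sizes and the smallest fitting whole-base gene length made all 6 values whole, within 0.03 of a read or, for large counts, a relative 3e-06, for 99.4% of tested genes. Coordinates are 1-based, GENCODE M21 on GRCm38.

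The members, lists and tests were chosen with earlier results of these data known. All members are named, with the 2 most abundant genes of the companion lists of pathway genes; marker lists are given by sums and examples, and the 8 most alike genes by r. March1 and March8 are listed under dates as names and were matched by Ensembl ID.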

Additional observations from a re-analysis of the deposited data

How the results depend on the processing

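No member was called in any setting run: a 0.1 pseudocount, low values kept (genes above 0 in some library), upper-quartile scaling, the replicate block, each library left out, and, chosen after seeing the data, limma-voom on recovered reads and the omission of HCD 1 and ND 2 together (lowest limma adjusted p 0.579). Genes called numbered 0 in each direction, except 0 to 1 lower over the libraries left out (1 without ND 2). The mean member difference was 0.46, and 0.52, 0.42 and 0.54 with the pseudocount, with scaling and without HCD 1 and ND 2. The filter and the block enter neither this mean nor the single member differences. With these settings the values therefore stayed at the main ones by construction. Leaving out single libraries gave a mean of 0.14 (ND 1) to 0.67 (HCD 3). Of 116 member values under these alternatives 4 turned negative: H2-DMb2 without ND 1 (-0.031), H2-Oa (-0.008) and H2-Ob (-0.024) without HCD 1, and H2-Oa without HCD 1 and ND 2 (-0.036). Without HCD 3 they were 0.444, 0.27 and 0.327, the highest with 1 library left out; the cause was not tested. Deviations of same-numbered libraries from their group means correlated at -0.19, 0.142 and 0.059, and those of other pairs at -0.517 to 0.532. With 3 libraries per group these values cannot exclude a pairing. The replicate block moved no call. H2-Oa, with 5 to 28 reads, is limited by depth.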

Other observations

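Among the companion genes, the library order of H2-Aa also occurred in C1qa, Lyz2, Ctss, Coro1a, Cd3e, Cd2, Socs1, Batf3, Siglech and Kdr, named with their values in view. Lyz2, lysozyme of macrophages, had 246, 399 and 125 FPKM in HCD 1 to HCD 3, against 83.6, 232 and 175 FPKM in ND 1 to ND 3. Cd53, a leukocyte tetraspanin, ran otherwise, with 34.5, 64.0 and 49.0 FPKM in HCD 1 to HCD 3, against 57.3, 56.4 and 69.3 FPKM in ND 1 to ND 3. The length implied by the values was shorter than the GENCODE M21 exon length for Ciita (5254 against 9535 bases) and H2-Eb1 (1184 against 1944 bases), and longer for H2-Oa (2183 against 1407 bases).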
